A study of Bos taurus with 18 samples.

Results

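TLR2, TLR4, CD14, LY96 and MYD88 are genes with which innate immune cells sense bacteria, and their levels were read in cells spun out of the milk of 18 cows. Members were the probe sets (groups of short probes on an Affymetrix bovine expression array that together report 1 transcript) whose gene symbol in the platform's probe-to-gene table is exactly one of those 5 names. The table gave 5 probe sets for 4 of the 5 genes, out of 24016 probe sets tested for 9155 named genes. TLR2, TLR4 and MYD88 were read by 1 probe set each and CD14 by 2, called here the A1_at and the S1_at probe set after the endings of their identifiers and kept apart throughout. LY96 (MD-2) is not analysed here. No filter on low values was applied, and all 5 probe sets stood above the table's median of 2.55 on every array.

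Toll-like receptors are membrane proteins that recognise conserved bacterial molecules. TLR2 responds to lipoproteins and other cell wall parts, largely of Gram-positive bacteria, and TLR4 to lipopolysaccharide (LPS) of the Gram-negative outer membrane. CD14 captures LPS and passes it to the complex of MD-2 and TLR4, and MYD88 is the adaptor that links both receptors to kinases which activate NF-kappaB and inflammatory genes. In the udder these genes are known from resident macrophages, from neutrophils that enter milk during infection, and from epithelial cells.

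The 18 arrays, 1 per cow, were 6 from cows with mastitis (inflammation of the udder), 6 from cows with endometritis (inflammation of the uterine lining, outside the udder) and 6 from healthy cows. The labels give the healthy cows as free of clinical signs, with under 100000 cells per ml of milk, mostly 10 to 100 days after calving and 2 to 4 years old. The diseased cows were 10 to 220 days after calving, with lactations 1 to 8 and no age given, so age and stage of lactation may differ between the groups and their part in the results was not tested. The same label gives single healthy cows a 4th and an 8th lactation and does not say whether the age range covers them. The labels name no bacterium for the mastitis cows and no breed or treatment for any group. Arrays are numbered 1 to 6 within a group as names only. Levels are the deposited log2 values of normalised intensity, on which 1 unit is a 2-fold change.

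The labelled material was checked against marker genes of the cells that milk can hold. Of 11 neutrophil markers measured, 8 were higher and 0 lower in mastitis than in healthy milk by the test described below, with a median difference of 3.68, where 10.2% of all probe sets were called higher and 9.35% lower. The log2 of their summed level lay between 12.91 and 14.85 on mastitis arrays, against 7.95 to 11.62 on endometritis and 8.93 to 11.76 on healthy arrays; MPO alone was at background in mastitis. Of 11 macrophage markers, 0 passed by limma in any comparison (1 at an unadjusted p under 0.05 in mastitis against healthy milk, 0 in the others), and the log2 of their summed level ran from 12.29 to 13.81 in mastitis, 12.19 to 14.40 in endometritis and 12.43 to 13.71 in healthy milk. That sum leans on SPP1, the brightest marker, with means of 12.40 in mastitis, 12.94 in endometritis and 12.82 in healthy milk. CD68, the next brightest, averaged 11.31, 9.72 and 9.37 in the same groups. The difference between mastitis and healthy milk was above 0 for 6 of the 11 markers. Of 12 mammary secretory markers, 11 were lower in mastitis than in healthy milk (summed level 10.60 to 14.21 in mastitis, 15.16 to 16.76 in endometritis and 16.05 to 16.73 in healthy milk), as were 6 of 8 epithelial markers. In that comparison 0 of 11 T cell markers, 1 of 4 B cell markers and 0 of 5 erythroid markers passed by limma (0, 1 and 0 at an unadjusted p under 0.05). These are bulk samples, in which more cells of a type and more RNA per cell cannot be told apart. The array controls also moved with the groups: the 3′ minus 5′ difference of the GAPDH controls, which grows as RNA degrades, was 0.39 ± 0.23 in mastitis, 0.58 ± 0.25 in endometritis and 0.88 ± 0.40 in healthy samples (SD, n = 6 each). The dap controls, which read a bacterial spike-in transcript, were at 6.03 ± 0.45 in mastitis, 6.93 ± 0.81 in endometritis and 7.41 ± 0.83 in healthy samples (SD, n = 6 each), and every mastitis array (5.54 to 6.66) was below every healthy one (6.79 to 9.03). One library, healthy array 3, stood apart, with a mean of 9.77 over its hybridisation controls.

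TLR4, the LPS receptor, was the member with the widest separation. It was 9.33, 10.43, 9.69, 9.73, 8.56 and 8.59 on mastitis arrays 1 to 6. On endometritis arrays it was 4.33, 4.45, 3.27, 5.19, 6.58 and 7.08, and on healthy arrays 6.79, 5.54, 3.37, 3.81, 4.35 and 5.96. Every mastitis array was above every array of both other groups, while the endometritis and healthy arrays covered nearly the same range. The means were 9.39 ± 0.72 in mastitis, 5.15 ± 1.45 in endometritis and 4.97 ± 1.34 in healthy milk (SD, n = 6 each).

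TLR2, the lipoprotein receptor, had 9.95, 10.02, 8.70, 9.81, 8.77 and 9.20 in mastitis. It had 6.60, 5.0, 5.12, 6.60, 7.86 and 8.29 in endometritis, and 7.66, 6.57, 4.74, 5.71, 5.38 and 6.67 in healthy milk. The mastitis arrays were again all above the others, but the nearest endometritis array (8.29) was only 0.40 below the lowest mastitis array. The means were 9.41 ± 0.60 in mastitis, 6.58 ± 1.36 in endometritis and 6.12 ± 1.05 in healthy milk (SD, n = 6 each).

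CD14, the LPS co-receptor, did not separate the groups as cleanly. On its first probe set, A1_at, it was 9.39, 12.01, 10.54, 9.34, 10.53 and 11.02 in mastitis, 9.36, 8.44, 8.14, 9.49, 10.82 and 10.64 in endometritis, and 10.93, 9.95, 7.14, 8.48, 8.47 and 10.01 in healthy milk. On its second, S1_at, it was 7.32, 10.08, 8.30, 7.58, 8.04 and 8.88 in mastitis, 5.33 to 8.40 (median 6.38) in endometritis and 4.83 to 7.93 (median 6.27) in healthy milk. All 3 groups overlapped on both probe sets, and mastitis arrays 1 and 4, which were high for TLR2, were the lowest of their group for CD14. The first probe set averaged 10.47 ± 1.01 in mastitis, 9.48 ± 1.10 in endometritis and 9.16 ± 1.38 in healthy milk, and the second 8.37 ± 1.00, 6.62 ± 1.29 and 6.30 ± 1.16 in the same groups (SD, n = 6 each).

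MYD88, the shared adaptor, was 9.99, 10.19, 8.25, 9.86, 8.11 and 9.28 in mastitis. It was 6.31, 6.35, 6.15, 6.71, 6.74 and 7.74 in endometritis, and 7.46, 6.47, 6.40, 7.07, 6.89 and 6.33 in healthy milk. The mastitis arrays lay above all others, with arrays 3 and 5 well below the other 4 of their group. In the other groups MYD88 varied less than the receptors did, averaging 6.67 ± 0.57 in endometritis and 6.77 ± 0.45 in healthy milk, against 9.28 ± 0.90 in mastitis (SD, n = 6 each).

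**Figure D1:**
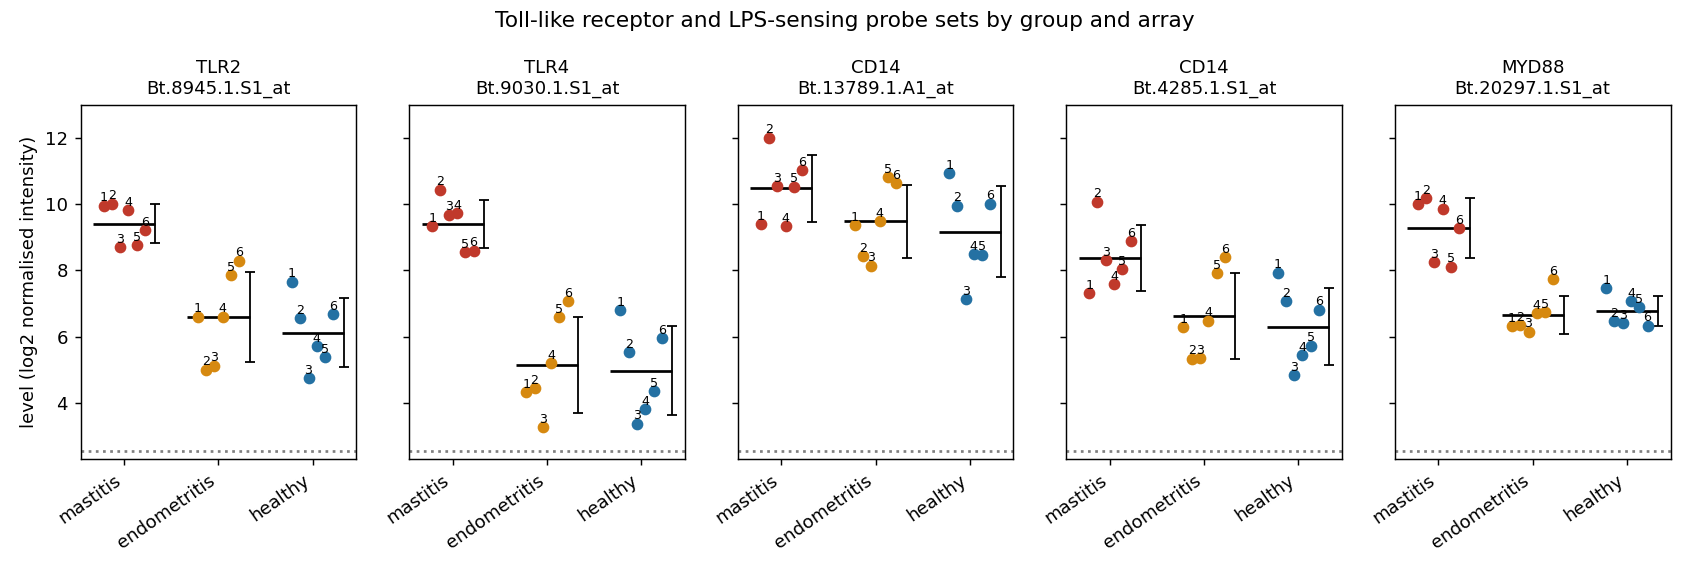
Level (log2 normalised intensity) of the 5 probe sets on each array, by group, with array numbers beside the points, the group mean as a bar, the SD as an error bar and the table median as a dotted line. For TLR2, TLR4 and MYD88 all 6 mastitis points lie above every endometritis and healthy point, while the CD14 groups overlap.

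Mastitis was compared with health to ask which parts of the sensing machinery differ when the udder is inflamed. TLR4, TLR2 and MYD88 were all higher in mastitis, TLR4 most, and for each of the 3 the groups did not overlap. CD14 was higher in mastitis on S1_at, and its difference on A1_at did not pass. The test was limma's moderated test in 1 model of all 18 arrays, with Benjamini-Hochberg adjustment across the whole table, and an adjusted p under 0.05 counted as a call. It called 4 of the 5 members, all higher, where 19.5% of all probe sets were called in either direction, 10.2% higher and 9.35% lower. Among the 12782 probe sets with a mean above the table median, 18.5% were called higher. The members were chosen with earlier results of these data known, so their counts are no independent support.

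TLR4 was higher by 4.42 (SE 0.69, a 21.4-fold change; limma, adjusted p = 0.000417), with a gap of 1.77 between the lowest mastitis and the highest healthy array. TLR2 was higher by 3.29 (SE 0.59, 9.77-fold; limma, adjusted p = 0.00119) and its gap was 1.04. MYD88 was higher by 2.51 (SE 0.38, 5.70-fold; limma, adjusted p = 0.000345) with a gap of 0.65. Non-overlap in the higher direction was seen for 6.22% of all probe sets. An exact permutation test over the 924 arrangements of 6 against 6 arrays gave TLR4, TLR2 and MYD88 p = 0.00216 each (two-sided), the smallest it can give.

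CD14 was higher by 2.07 on S1_at (SE 0.66, 4.19-fold, 95% interval 0.67 to 3.46; limma, adjusted p = 0.0362), and 6 of the 12 fits with 1 array removed did not make the call. Those were the fits without mastitis array 2, 3 or 6 or without healthy array 3, 4 or 5, with adjusted p from 0.0537 to 0.0855. On A1_at CD14 differed by 1.31 (SE 0.67, 95% interval -0.11 to 2.72; limma, adjusted p = 0.21). The exact permutation p was 0.00866 for the second probe set and 0.0974 for the first. Both probe sets rank the arrays much alike, as described below, so they differ in the size of the difference more than in its order over arrays.

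The neutrophil markers, the GAPDH difference and the dap controls moved with this comparison. The part of the neutrophil markers and the dap controls in the members' differences was not tested. For the GAPDH difference only the following covariate fit was run. When the GAPDH difference was added as a covariate, the size was 3.25 for TLR4 (adjusted p = 0.0141), 2.37 for TLR2 (adjusted p = 0.0415) and 2.29 for MYD88 (adjusted p = 0.0114), and CD14 on S1_at no longer passed (1.40, limma, adjusted p = 0.399). The sample titles carry a number whose meaning is not stated. Among arrays numbered up to 120 (4 mastitis, 3 healthy) the differences were 4.44 for TLR4, 3.20 for TLR2 and 2.11 for MYD88 (adjusted p from 0.058 to 0.13 by limma), and above 120 (2 mastitis, 3 healthy) they were 4.65, 3.66 and 3.31, of which only that of MYD88 passed (limma, adjusted p = 0.00637). CD14 differed by 1.37 and 2.21 in the lower range and by 1.36 and 2.09 in the upper, on its first and second probe set. The direction was therefore the same within both ranges for all 5 members, with fewer arrays behind each value. Without healthy array 3, whose controls stood apart, the differences were 4.10 for TLR4, 3.01 for TLR2, 2.44 for MYD88, and 0.90 (A1_at) and 1.77 (S1_at) for CD14.

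Endometritis was compared with health to ask whether a disease outside the udder is seen in the same genes of milk cells. None of the members passed (0 of 5 by limma, and 0 of 5 at an unadjusted p under 0.05), and none of all 24016 probe sets was called (0%, with 1047 at an unadjusted p under 0.05). The exact permutation test called 0 of 5 as well. TLR2 differed by 0.46 (95% interval -0.80 to 1.72), TLR4 by 0.18 (-1.28 to 1.64) and MYD88 by -0.10 (-0.91 to 0.70). CD14 differed by 0.32 on both probe sets (-1.10 to 1.73 and -1.07 to 1.72). These intervals leave room for a change of more than 1 unit in either direction for TLR4 and CD14, whereas for MYD88 they do not reach 1 unit. On all 5 probe sets the endometritis arrays overlapped the healthy arrays.

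Mastitis set against endometritis compares inflammation inside and outside the udder. It used the same mastitis arrays as the comparison with health, so its values stand beside the earlier ones and are no second sample. TLR4 was higher in mastitis by 4.24 (18.9-fold; limma, adjusted p = 0.000829), TLR2 by 2.83 (7.10-fold; adjusted p = 0.00472) and MYD88 by 2.62 (6.13-fold; adjusted p = 0.000362). The groups did not overlap for these 3, with gaps of 1.48, 0.40 and 0.38. CD14 did not pass on either probe set (0.99, adjusted p = 0.392, and 1.74, adjusted p = 0.0928, by limma). The call of S1_at depended on the test, the filter and 1 array: its exact permutation p, unadjusted, was 0.0281, and limma passed it when dim probe sets were left out (adjusted p = 0.0421) or without endometritis array 6 (adjusted p = 0.0413). The members called were thus 3 of 5, where 14.5% of all probe sets were called in either direction, 7.99% were called higher in mastitis, and 4.43% had groups that did not overlap in that direction.

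**Figure D2:**
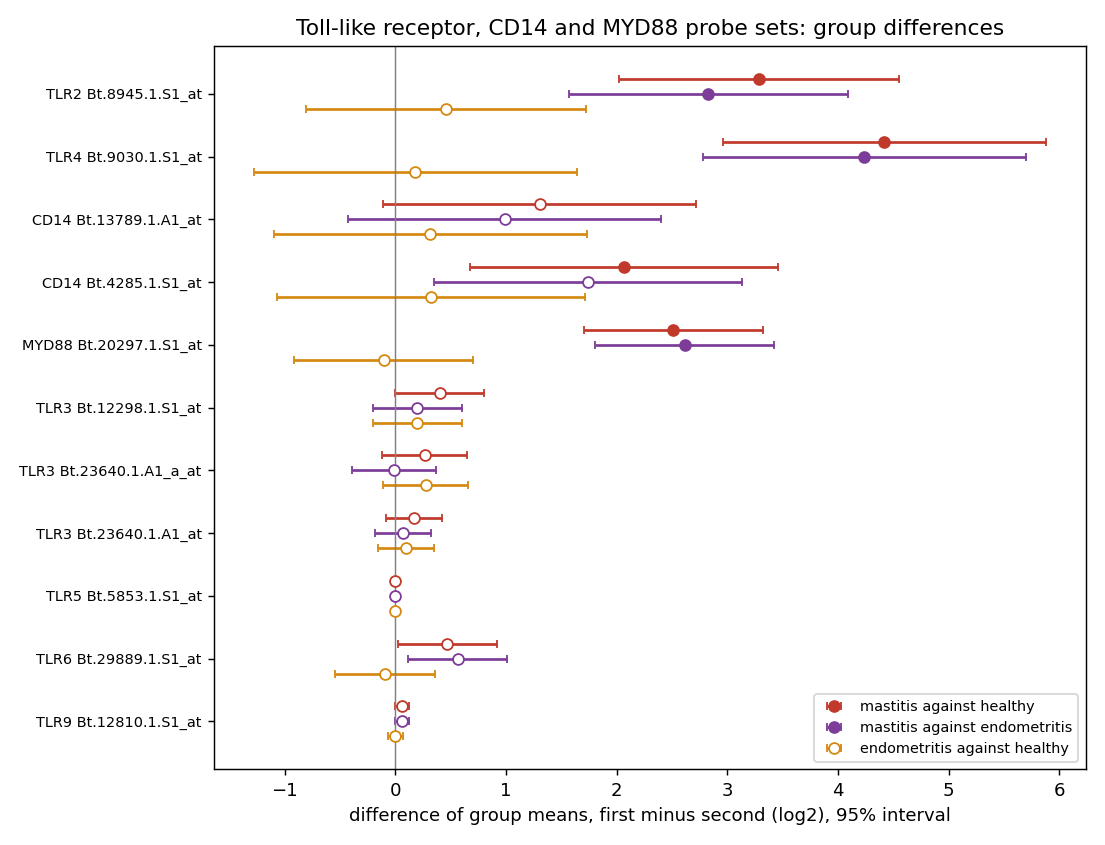
Difference of group means (log2, first group minus second) with its 95% interval for the 5 member probe sets and for the other Toll-like receptors measured, in each of the 3 comparisons; filled points passed limma's adjusted test. TLR4, TLR2 and MYD88 are filled in both comparisons with mastitis, CD14 is filled once, and no endometritis against healthy point is filled.

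The measured differences between mastitis and healthy milk were not of one size on the 5 probe sets. To compare them without setting one probe set's level against another's, the difference between a pair of members was taken within each array and compared between groups by exact permutation, with Benjamini-Hochberg adjustment over the 30 tests; these tests were chosen after the values had been seen. Between mastitis and healthy milk the TLR4 difference exceeded that of CD14 by 3.11 on A1_at and by 2.35 on S1_at (exact permutation, adjusted p = 0.00928 for both). The TLR2 difference exceeded that of CD14 by 1.98 (exact permutation, adjusted p = 0.00928) and 1.22 (adjusted p = 0.0144) on the same probe sets. The TLR4 difference exceeded that of TLR2 by 1.13 (the TLR2 minus TLR4 difference was -1.13; exact permutation, adjusted p = 0.00928) and that of MYD88 by 1.91 (adjusted p = 0.0325). The change of TLR2 minus that of MYD88 was 0.78 (exact permutation, adjusted p = 0.231), and the changes of the 2 CD14 probe sets against MYD88 were -1.20 (adjusted p = 0.264) and -0.44 (adjusted p = 0.604), which did not pass. The 2 CD14 probe sets themselves differed in their change by 0.76, S1_at moving more (first minus second -0.76; exact permutation, adjusted p = 0.0144). Since 2 probe sets of 1 gene pass this test, passing it does not show that the transcripts of 2 genes changed by different amounts. No pair passed between endometritis and healthy milk.

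Within groups the receptors and the co-receptor varied together from cow to cow. Correlations of deviations from the group means over the 18 arrays, given as a description, were 0.968 between the CD14 probe sets, 0.889 between TLR2 and TLR4, 0.811 and 0.853 between TLR4 and CD14, and 0.766 and 0.817 between TLR2 and CD14. MYD88 followed CD14 less, at 0.281 and 0.418, and TLR2 at 0.646. In the 6 mastitis arrays alone the order changed: TLR2 and MYD88 correlated at 0.982, TLR2 and TLR4 at 0.566, and TLR2 and CD14 at -0.10 and 0.102. Arrays of a group share their normalization, so part of any correlation can come from what the arrays share.

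The members' levels were then set against the neutrophil marker score of each array (the mean of the markers' centred log2 values) within each group of 6. In mastitis MYD88 (Pearson r = 0.985, exact permutation p = 0.00278, adjusted p = 0.0208 over 15 relations; Spearman rho = 0.943, p = 0.0167, adjusted 0.0556) and TLR2 (r = 0.948, exact p = 0.0111, adjusted p = 0.0208; rho = 0.886, p = 0.0333, adjusted 0.0556) rose with the score, and r was 0.971 and 0.955 without the 2 arrays farthest from the median score. TLR4 had r = 0.608 (exact p = 0.197, adjusted 0.247; rho = 0.829, p = 0.0583, adjusted 0.0795; r = 0.957 without the 2 farthest). The relation of CD14 to the score in mastitis did not pass, with r = -0.037 and 0.19 (exact p = 0.95 and 0.718, adjusted 0.95 and 0.769; rho = 0.0857 and 0.143, exact p = 0.919 and 0.803).

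In endometritis and healthy milk the receptors and CD14 went with the neutrophil score. TLR4 had r = 0.875 in endometritis (exact p = 0.0125, adjusted 0.0208; rho = 0.886, p = 0.0333) and 0.912 in healthy milk (exact p = 0.00417, adjusted 0.0208; rho = 0.943, p = 0.0167), and CD14 on S1_at had 0.875 (exact p = 0.0111, adjusted 0.0208; rho = 0.886) and 0.925 (exact p = 0.00139, adjusted 0.0208; rho = 1, adjusted 0.0417). TLR2 had 0.843 in endometritis (exact p = 0.0111; rho = 0.771) and 0.903 in healthy milk (exact p = 0.00833; rho = 0.886), and the first CD14 probe set 0.784 (exact p = 0.0514, adjusted 0.0701; rho = 0.829) and 0.873 (exact p = 0.0167, adjusted 0.025; rho = 0.886). Without the 2 farthest arrays these r values were 0.729 to 0.94. MYD88 had r = 0.992 in endometritis (exact p = 0.00556, adjusted 0.0208; rho = 0.886; 0.96 without the 2 farthest) and 0.551 in healthy milk (exact p = 0.263; rho = 0.314), where r turned to -0.914 without the 2 farthest arrays. Of the 15 rank correlations, 1 passed after adjustment, that of CD14 on S1_at in healthy milk.

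The same was done with the macrophage marker score, a comparison added after the values had been seen. In mastitis MYD88 and TLR2 fell as this score increased (r = -0.977, exact p = 0.00417, adjusted p = 0.0208, rho = -0.943; and r = -0.941, exact p = 0.00833, adjusted p = 0.025, rho = -0.886), with r = -0.799 and -0.733 without the 2 farthest arrays. In healthy milk TLR4 had r = 0.979 (exact p = 0.00556, adjusted 0.0208; rho = 0.943) and CD14 on A1_at 0.955 (exact p = 0.00556, adjusted 0.0208; rho = 0.886). In endometritis the same CD14 probe set had r = 0.949 (exact p = 0.00139, adjusted 0.0208; rho = 1, adjusted 0.0417) and TLR4 0.926 (exact p = 0.0125, adjusted 0.0298; rho = 0.886). Of these 15 rank correlations 1 passed after adjustment, that of CD14 on A1_at in endometritis. MYD88 had r = 0.638 in endometritis (exact permutation p = 0.178, rho = 0.886, r = 0.985 without the 2 farthest arrays) and 0.114 in healthy milk (exact permutation p = 0.828). With the neutrophil score it had 0.992 and 0.551. TLR2 and CD14 on S1_at had r of 0.867 to 0.945 with the macrophage score in these groups. The scores themselves were opposed on the mastitis arrays (r = -0.976), where relations to them cannot be told apart. They ran together in endometritis (r = 0.645) and healthy milk (r = 0.81). Whether a member followed either score more closely was not tested.

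**Figure D3:**
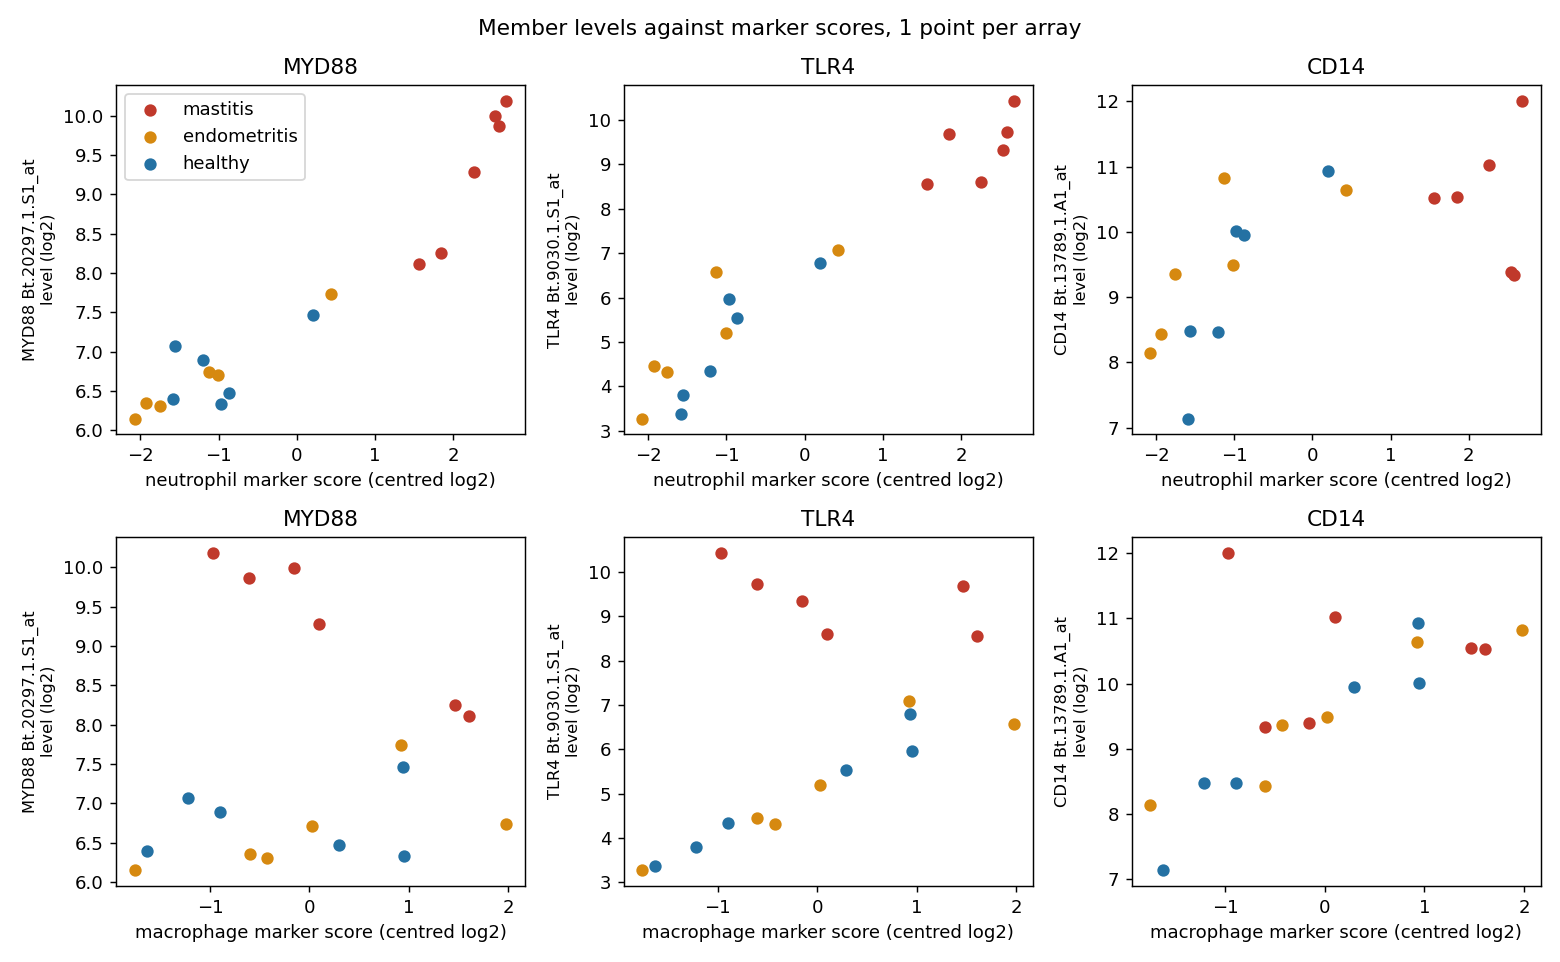
Level (log2) of MYD88, TLR4 and CD14 (A1_at) on each of the 18 arrays against the neutrophil (top) and macrophage (bottom) marker score of the array, coloured by group. MYD88 climbs with the neutrophil score in mastitis (r = 0.985), CD14 does not (r = -0.037), and in endometritis and healthy milk TLR4 climbs with both scores.

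The genes whose pattern was most like each member were named by the correlation of deviations from group means over the 18 arrays, among 8152 eligible probe sets of named genes. Nearest to TLR4 were CYBB, the membrane subunit of the phagocyte NADPH oxidase (0.953), DRAM1, GBE1, DNAJC13 and STX2 (0.927). Nearest to TLR2 were STX2, a syntaxin of membrane fusion (0.944), SIRPA, an inhibitory receptor of myeloid cells, RAB5C, SPAG9 and RIDA (0.931). The first CD14 probe set was nearest to HIF1A, the oxygen-regulated transcription factor (0.971), followed by BCAP29, HYAL1, PIGF and RHOQ (0.938), and the second to HYAL1, a hyaluronidase (0.962), SNX24, EGR1, RHOQ and SLC43A2 (0.933). MYD88 was nearest to THBD, thrombomodulin (0.939), KLF10, S100A9, a calgranulin of neutrophils and 1 of the neutrophil markers above (0.887), ETS2 and TRIB1 (0.858). The only genes in more than 1 set were STX2 (TLR2 and TLR4) and HYAL1 and RHOQ (both CD14 probe sets). With sets this short, sharing no gene is not read as a difference between members.

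Of 8 other Toll-like receptors looked for, TLR3, TLR5, TLR6 and TLR9 were measured, and 0 of the 4 passed by limma in any comparison. At an unadjusted p under 0.05 there was 1 of 4 in each comparison with mastitis and 0 in endometritis against healthy milk. TLR6, which pairs with TLR2, was 4.18 to 5.25 (median 4.79) in mastitis, 3.61 to 4.76 (median 4.21) in endometritis and 4.01 to 4.69 (median 4.17) in healthy milk, a difference of 0.47 between mastitis and health (limma, adjusted p = 0.148). TLR3, which senses double-stranded RNA, differed between them by 0.40, 0.26 and 0.17 on its 3 probe sets (limma, adjusted p = 0.17, 0.369 and 0.397). On the one ending S1_at it passed when healthy array 6 was left out (limma, adjusted p = 0.0265), the array on which all 3 TLR3 probe sets were highest among healthy cows. TLR5, the flagellin receptor, was at background (no array of the group above the table median) in all 3 groups, and TLR9, which senses bacterial DNA, in endometritis and healthy milk.

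The remaining lists of the pathway follow, from LPS binding to target genes, each gene read by the probe set whose mean over the 18 arrays was highest. The median difference over all tested probe sets was 0 between mastitis and healthy milk, and -0.01 over those with a mean above the table median, against which the lists' medians can be read; no list was tested as a set. Since each gene is read by its brightest probe set, the counts can be read against the bright probe sets (those with a mean above the table median), of which 35.9% were called in either direction and 18.5% higher (19.5% and 10.2% over all probe sets). The lists were chosen with earlier results of these data known, so a count above that background is no independent support. In endometritis against healthy milk limma called 0 genes in each of these lists. Among the targets, 1 gene had an unadjusted p under 0.05.

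Of 10 genes listed under LPS binding and handling, 1 was higher and 1 lower in mastitis than in healthy milk, with a median difference of 0.32. This count is no larger a share than that background. The lower gene was MFGE8, whose call is not read here as a change in LPS handling. AOAH, which strips fatty acids from lipid A, was 4.04 to 5.97 (median 4.78) in mastitis and 2.81 to 3.44 (median 2.93) in healthy milk, higher by 1.78 (limma, adjusted p = 0.000414). MFGE8, a milk fat globule protein of the secretory epithelium, was lower, at 3.42 to 3.70 in mastitis against 6.36 to 10.00 in healthy milk (difference -4.63; limma, adjusted p = 0.00073); the mammary secretory markers fell in the same comparison. CD180, a relative of TLR4, differed by 1.46 (adjusted p = 0.0597) and CD36, a scavenger receptor that works with TLR2, by -1.31 (adjusted p = 0.0774), neither past the limma threshold. CD180 passed without mastitis array 4 or 6 (adjusted p = 0.0474 and 0.0262) and CD36 without mastitis array 3 or 5 (adjusted p = 0.0349 and 0.0353), and both passed with dim probe sets left out or with quantile normalization (limma, adjusted p from 0.0255 to 0.0446).

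Of 5 genes for folding and traffic of the receptors, 1 passed, again no larger a share than the 35.9% background. UNC93B1, which carries nucleic acid-sensing receptors to endosomes, was higher by 1.61 (limma, adjusted p = 0.0379), with overlapping groups and no call in 8 of 12 fits with 1 array removed. HSP90B1, the chaperone of Toll-like receptors, differed by 1.01 (adjusted p = 0.172), RAB11A, a GTPase of recycling endosomes, by -0.58 (adjusted p = 0.116) and TMED7, a transport cargo receptor, by -0.16 (adjusted p = 0.794). Quantile normalization made the RAB11A difference -0.88 (limma, adjusted p = 0.00983), and array weights made that of HSP90B1 1.38 (limma, adjusted p = 0.0261).

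Of 13 adaptors and proximal kinases, 4 were higher and 1 lower, with a median of 0.01, a share near the 35.9% background. PELI1, a ubiquitin ligase that acts on IRAK kinases, was higher by 2.16 (limma, adjusted p = 8.9e-05) and its groups did not overlap, with 7.27 to 9.05 in mastitis and 5.79 to 6.55 in healthy milk. TRAF6, the ubiquitin ligase downstream of MYD88, was higher by 0.76 (adjusted p = 0.0113) and TRAF3, which serves the interferon branch, by 1.19 (adjusted p = 0.00227). UBE2V1, which helps TRAF6 build ubiquitin chains, was lower by 2.18 (difference -2.18; limma, adjusted p = 0.000628), at 5.0 to 6.00 in mastitis against 6.82 to 9.11 in healthy milk. The kinases that MYD88 recruits, IRAK1 and IRAK4, chosen here after their values were seen, differed by 0.13 and 0.01 (limma, adjusted p = 0.773 and 1), beside the MYD88 difference of 2.51.

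Of 8 brakes on Toll-like receptor signalling, 4 were higher and 0 lower, with a median of 1.77. That is 50% called, beside 35.9% of bright probe sets called in either direction and 18.5% called higher. CYLD, a deubiquitinase, was 7.09 to 8.11 in mastitis against 4.61 to 5.80 in healthy milk, higher by 2.47 (limma, adjusted p = 0.000205). PTPN6, the phosphatase SHP-1, was higher by 2.29 (adjusted p = 0.0117) and ATF3, a repressor induced by Toll-like receptors, by 2.09 (adjusted p = 0.0158). INPP5D, the lipid phosphatase SHIP-1, was higher by 1.44 (limma, adjusted p = 0.0419), though not in 10 of 12 fits with 1 array removed. Against endometritis the count was 5 higher and 0 lower. Of the probe sets above the table median, 26.8% were called there in either direction and 14.6% higher.

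Of 9 NF-kappaB and IRF genes, 5 were higher and 0 lower, with a median of 1.27. That is 55.6% called, beside the same 35.9% in either direction and 18.5% higher. IKBKB, the kinase that releases NF-kappaB, was higher by 2.93 (limma, adjusted p = 1.9e-05), NFKB1 by 3.10 (adjusted p = 0.000129), IRF7, an interferon regulatory factor, by 2.83 (adjusted p = 0.000223) and NFKB2 by 1.27 (adjusted p = 0.00101). The groups did not overlap for IKBKB (6.04 to 7.75 in mastitis, 3.69 to 5.02 in healthy milk), NFKB1 and IRF7, and overlapped for NFKB2.

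Of 18 target genes, 7 were higher and 0 lower in mastitis than in healthy milk, with a median of 1.83. That is 38.9% called, near the 35.9% of bright probe sets called in either direction. Of the bright probe sets 18.5% were called higher. NOS2, inducible nitric oxide synthase, was 8.91 to 11.36 in mastitis against 2.49 to 6.80 in healthy milk (higher by 4.99; limma, adjusted p = 0.000649). ICAM1, an adhesion molecule, was higher by 3.68 (adjusted p = 0.00103), CXCL10, an interferon-induced chemokine, by 2.95 (adjusted p = 0.00594) and SOD2, mitochondrial superoxide dismutase, by 2.66 (adjusted p = 0.000394). Against endometritis 10 of the 18 were higher and 0 lower, beside 26.8% of bright probe sets called in either direction and 14.6% higher. Of 6 other bacterial sensors and inflammasome genes, 2 were higher and 0 lower. That is 33.3% called, no larger a share than the 35.9% background. The 2 were CASP4, whose human protein binds LPS in the cytosol, by 3.27 (limma, adjusted p = 0.000164), and CASP1, the caspase that matures interleukin 1 beta, by 2.24 (adjusted p = 0.00128). PYCARD, the adaptor between sensors and CASP1, differed by 1.95 (adjusted p = 0.0834), and PGLYRP1, which binds peptidoglycan, was at background in mastitis and healthy milk.

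**Figure D4:**
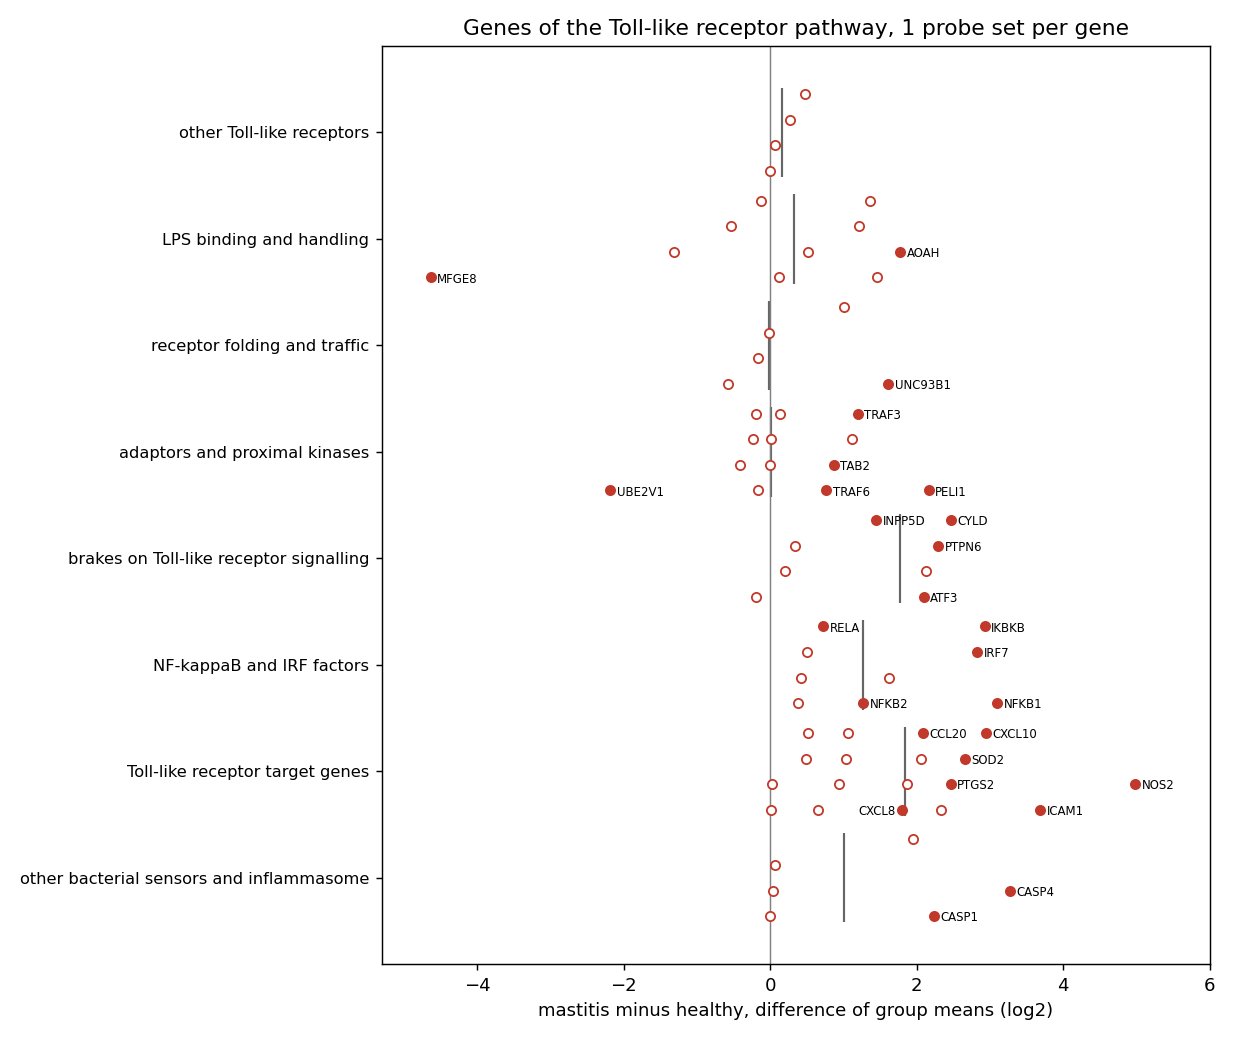
Difference between mastitis and healthy milk (log2) for each gene of the 8 pathway lists, 1 probe set per gene, with filled, named points where limma's adjusted test passed and the list's median as a vertical bar. Brakes, NF-kappaB and IRF factors and target genes have medians of 1.77, 1.27 and 1.83, while adaptors and receptor traffic lie around 0.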

How the data were processed

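Per the labels' protocols, TRI reagent was used for RNA extraction and DNase for clean-up, samples had to have an RNA integrity number above 6, and 100 ng went into the 3′ IVT Express kit, whose primer binds the poly-A tail, with 10 µg hybridised. The values are log2 intensities normalised by the authors and used as deposited. RMA, GCRMA and limma are listed in the submitters' processing notes without version or role; for the step that made the values and for the log base the entry is not given in the sources used here. Values in the table span 2.43 to 14.2, with a median of 2.55, and many pile up at the lowest level, and they were read as log2; fold changes rest on that reading. The number of arrays limits the precision.

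Of 24128 probe sets, 112 controls were left out. The platform table gave 1 symbol for 13318, several for 86 and none for 10724. Symbols of the 5 member probe sets matched a RefSeq gene table (ARS-UCD2.0) by Entrez identifier; it was used for names only. The test was run in R 4.3.3 with limma 3.58.1 (15 residual and 0.561 prior degrees of freedom), with p-values adjusted over 24016 probe sets, and the procedure was tested on simulated data. Exact permutation tests between groups ran in R. Those of the marker scores ran in Python 3.11.15 with numpy 2.4.6, where scipy 1.17.1 supplied the ranks. No filter was set on dim probe sets; background means no array of a group above 2.55.

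The labels pair no samples. All 18 titles share 1 date and an on-farm tag, while the labels name farms and clinics as sources; which cow came from which is not stated, so p-values cover the spread between these cows only. The members and lists were chosen with earlier results of these data known. Named genes are all member and other Toll-like receptor probe sets, up to 4 genes per pathway list with the smallest p between mastitis and healthy milk, and the 5 nearest genes per member. Alternatives changed the normalization, the dim filter, the variance model, array weights, the title number, a GAPDH covariate, the arrays fitted, the probe set per gene and the test, and left out each array in turn.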

Additional observations from a re-analysis of the deposited data

Results flagged for a closer look

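In 117 groups of 6 arrays (39 probe sets), 14 had an array whose gap to its neighbour exceeded Dixon's 95% critical value as a share of the group's range; chance gives about 1 in 20. MYD88 was 7.74 on endometritis array 6, where the next highest was 6.74. The same array was highest for CD180 (4.66, next 3.11), CXCL10 (3.85, next 2.89), TRAF3 (2.96, next 2.90) and 1 of the TLR3 probe sets (3.04, next 2.67). It was also the endometritis array with the highest TLR2 and TLR4. Healthy array 6 stood apart on all 3 TLR3 probe sets, at 3.33 (next 2.53), 3.08 (next 2.66) and 2.78 (next 2.51). CXCL10 was 3.40 on healthy array 2 (next 2.85), and TRAF3 was lowest on healthy array 4 (2.84, next 2.95). TRAF6 was 5.75 on mastitis array 1 (next 5.12). At background level, TLR5 was 2.44 on mastitis array 4 (next 2.43), and PGLYRP1 was 2.45 on endometritis array 3 (next 2.43) and 2.43 on healthy array 5.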

How the results depend on the processing

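In mastitis against healthy milk, TLR2, TLR4 and MYD88 kept their direction under all 13 alternatives and their calls in all 12 fits that left out 1 array, with ranges of 3.01 to 3.59, 4.10 to 4.78 and 2.33 to 2.74 over those fits; the calls of TLR2 and TLR4 were lost within both ranges of title numbers and that of MYD88 within the lower one. CD14 ranged from 0.90 to 1.66 (A1_at) and from 1.72 to 2.39 (S1_at) over those fits; quantile normalization ended the call of S1_at (1.74, adjusted p = 0.0583). Of 4 members called, 0 remained up to title number 120 and 1 above it, and leaving out 1 array gave 3 to 4; against endometritis 1 of 3 remained above 120, with 3 to 4 over left-out arrays. Over all probe sets, 4689 calls (2443 higher, 2246 lower) became 119 up to 120, 2347 above 120, 1428 with the GAPDH covariate and 2990 (2043 higher, 947 lower) with hybridisation control scaling, which shifts the median of bright probe sets by 0.25; the hybridisation controls of mastitis and healthy arrays differed by -0.25, and by -0.085 without healthy array 3. The mastitis against endometritis calls, 3493, became 2069 with that scaling and 2273 with the dim filter added, an alternative chosen after seeing the data. Leaving out 1 array gave 3786 to 4854 and 2639 to 3835. Endometritis against healthy calls, 0, became 1 with the dim filter, median centring, hybridisation control scaling with or without that filter, an intensity trend or array weights, 4 above 120, and 0 to 1 over left-out arrays.

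Signs turned where differences were near 0. In endometritis against healthy milk, MYD88 was 0.090 with hybridisation control scaling, with or without the dim filter, and 0.10 with array weights; TLR4 was -0.056 with the title number as a block; with the GAPDH covariate TLR2 was -0.11, TLR4 -0.54 and CD14 -0.097 and -0.088. Over left-out arrays TLR4 ran from -0.20 to 0.56, CD14 from -0.087 to 0.67 and -0.031 to 0.65, and MYD88 from -0.32 to 0.033. In mastitis against healthy milk, TLR5 was -0.0025 with median centring, HSP90B1 -0.11 above 120, and TMED7 0.086 with hybridisation control scaling, with or without the dim filter, 0.11 with array weights, 0.068 up to 120, 0.073 with the GAPDH covariate and -0.34 to 0.033 over left-out arrays. With 1 endometritis array up to 120, that range was not fitted for endometritis. The cause was not tested.

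Of 21 named pathway genes called, 7 lost the call with the GAPDH covariate (UNC93B1, TRAF3, TRAF6, PTPN6, ATF3, INPP5D and CXCL10), 10 above 120 and all 21 up to 120. Genes called over the alternatives numbered 0 to 4 for LPS handling (2 in the report), 0 to 2 for receptor traffic (1), 0 to 6 for adaptors (5), 0 to 5 for brakes (4), 0 to 6 for NF-kappaB and IRF factors (5), 1 to 9 for target genes (7) and 0 to 3 for other bacterial sensors (2). Calls were also gained: PYCARD with 12 arrays fitted or dim probe sets left out (adjusted p = 0.0483 and 0.0377), the S1_at probe set of TLR3 with array weights (0.0475), CD180 with median centring (0.0411) or with control scaling and the dim filter (0.037), and CD14 on S1_at against endometritis as given in the report. With the mean of all probe sets per gene, 1 B cell marker passed against endometritis, where none had. No paired analysis was possible because the labels pair no samples between the groups. Probe sets near 2.55 have little signal over background, which limits TLR3, TLR5 and TLR9. It also limits the sizes given for genes that were low in healthy milk. Among them were TRAF3 (2.84 to 2.96), NFKB2 (2.53 to 3.04) and CXCL10 (2.70 to 3.40).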
